A study of Mus musculus with 16 samples.

Results

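The cardiac sarcomere and calcium handling genes are 36 mouse genes whose products build the contractile apparatus of heart muscle, move calcium in and out of its stores, or supply it with energy and oxygen. The members were a given list of gene symbols, and each was read from the probe set annotated to it with the highest mean over the 16 arrays. Of the 36 genes, 33 were measured, out of 17097 genes on the array. The 33 genes had 62 probe sets. Myh6, the main adult mouse myosin heavy chain, Myom2, an M-band protein, and Smpx, a small muscle protein, were not analysed here.

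Total RNA came from mice without NM1 (KO) and from wild-type mice (WT). Nuclear myosin 1, or NM1, is a product of Myo1c, a motor protein gene. KO heart and KO lungs came from mice 1602, 1603 and 1586, and WT heart and WT lungs from mice 1592, 1624 and 1593. KO skin fibroblasts carried the numbers 1584 and 1550, and WT skin fibroblasts 1571 and 1623. The fibroblasts, titled as cells, were cultured, while heart and lungs were organs. In comparisons with fibroblasts, cell type and culture cannot be told apart. The labels state neither strain, age, sex and treatment nor the part of Myo1c that was removed.

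In a heart muscle cell, myosin thick filaments pull on actin thin filaments between Z-discs, and titin spans each repeat from Z-disc to M-band. Calcium enters through the L-type channel, releases more calcium from the sarcoplasmic reticulum through the ryanodine receptor, and binds troponin C, which frees actin for myosin. The pump SERCA2a, restrained by phospholamban, then returns calcium to the store. In mice, heart muscle also extends along the pulmonary veins into the lungs, where it resembles atrial more than ventricular muscle.

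All values are log2 signals, so a difference of 1 is a doubling, and signals of different probe sets do not compare amounts of different genes. A probe set was tested when it averaged more than 3.79, the overall median signal, in at least 1 tissue of the comparison. The 4 Myo1c probe sets averaged 5.97 ± 0.04 in KO heart and 6.72 ± 0.11 in WT heart (SD, n = 3 each). They averaged 6.65 ± 0.40 in KO lungs and 8.0 ± 0.41 in WT lungs (SD, n = 3 each), and 6.25 ± 0.01 in KO fibroblasts and 7.67 ± 0.20 in WT fibroblasts (SD, n = 2 each). KO was below WT without overlap in each tissue. Array medians lay between 3.65 and 3.93. The heart array of KO mouse 1602 was unlike the others: its upper quartile was 5.63, against 6.17 to 6.31 on the other heart arrays. The lungs array of the same mouse stood apart in the heart muscle genes described below. Lung epithelium markers had a mean of 11.95 to 12.25 in KO lungs and 12.21 to 12.34 in WT lungs, with all 7 measured markers above 3.79 on every lungs array. In heart the mean of these 7 markers was 3.69, 4.33 and 4.40 in KO mice 1602, 1603 and 1586. It was 3.54, 3.63 and 3.51 in WT mice 1592, 1624 and 1593. In the same order, Scgb1a1, a club cell marker, read 3.50, 8.05 and 6.49 in KO heart and 3.53, 4.18 and 5.06 in WT heart. Sftpc, a surfactant gene, read 3.41, 5.46 and 6.22 in KO heart and 4.13, 4.29 and 3.91 in WT heart. The other markers of the list read at most 4.54 on any heart array. The 6 fibroblast markers averaged 10.18 to 10.20 in KO fibroblasts and 9.40 to 10.18 in WT fibroblasts.

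Promoter sequence was available for 30 of the 36 genes, from RefSeq on GRCm38.p6, and the 250 bases before each annotated start were searched on both strands. The CArG box is the site bound by the serum response factor. It was present at 5 of the 30 genes (16.7%), Actc1, Ldb3, Myl3, Myom1 and Nebl, against 1.62% of 27025 genes with an entry. The MEF2 site was present at 4 of the 30 (13.3%), which were Casq2, Mybpc3, Myoz2 and Ttn, against 3.42%. The GATA motif GATAA was present at 43.3% against 25.5%, the E-box CANNTG at 90% against 69.3%, the TEAD motif CATTCC at 23.3% against 14.4%, and TATAAA at 6.67% against 14.3%. These matches are descriptions of sequence and were not tested. The 150 bases before the start are shown for Actc1, the cardiac actin (chr2:114052876-114053025, minus strand), for Myl3, the ventricular essential light chain (chr9:110763528-110763677, plus strand), for Myl7, the atrial regulatory light chain (chr11:5898783-5898932, minus strand), and for Myl4, the atrial essential light chain (chr11:104550513-104550662, plus strand). Actc1 and Myl3 are shown because they differ in how far heart exceeded lungs, by 3.68 and 8.37, and Myl7 and Myl4, which are not members, because their lungs values are set beside those of the ventricular light chains below. The capitals mark the CArG box. It stands in the windows of Actc1, Myl3 and Myl7, while none was found in that of Myl4 or, over the bases searched, at 25 of the 30 genes.
Actc1: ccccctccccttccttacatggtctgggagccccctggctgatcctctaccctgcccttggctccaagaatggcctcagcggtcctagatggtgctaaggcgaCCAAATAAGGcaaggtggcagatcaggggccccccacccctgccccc
Myl3: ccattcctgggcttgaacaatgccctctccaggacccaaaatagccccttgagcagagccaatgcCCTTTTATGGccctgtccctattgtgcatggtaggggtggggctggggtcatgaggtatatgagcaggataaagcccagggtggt
Myl7: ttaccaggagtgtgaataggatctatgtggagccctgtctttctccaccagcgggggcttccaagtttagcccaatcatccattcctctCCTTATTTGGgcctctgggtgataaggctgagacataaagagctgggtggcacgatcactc
Myl4: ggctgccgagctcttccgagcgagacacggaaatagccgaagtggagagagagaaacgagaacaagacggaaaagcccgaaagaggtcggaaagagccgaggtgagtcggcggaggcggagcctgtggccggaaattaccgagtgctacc

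All 33 measured genes were higher in heart than in lungs and passed the test, with a median difference of 5.61 and a range of 0.62 to 10.05. Among all 24947 tested probe sets 29.1% were called higher in heart, and the median difference was -0.26. Here and below, a call means an adjusted p under 0.05 in limma with Benjamini-Hochberg adjustment, and tissue differences average KO and WT. All 33 genes were also called higher in heart than in skin fibroblasts, against 30.5% of tested probe sets, with a median difference of 8.45 and a range of 2.55 to 10.42. The list was assembled for heart muscle, so these directions describe it and are not independent evidence. On the heart arrays 5 or 6 members lay within 0.5 of the highest value of the array, which limits the differences that could be seen there.

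**Figure D1:**
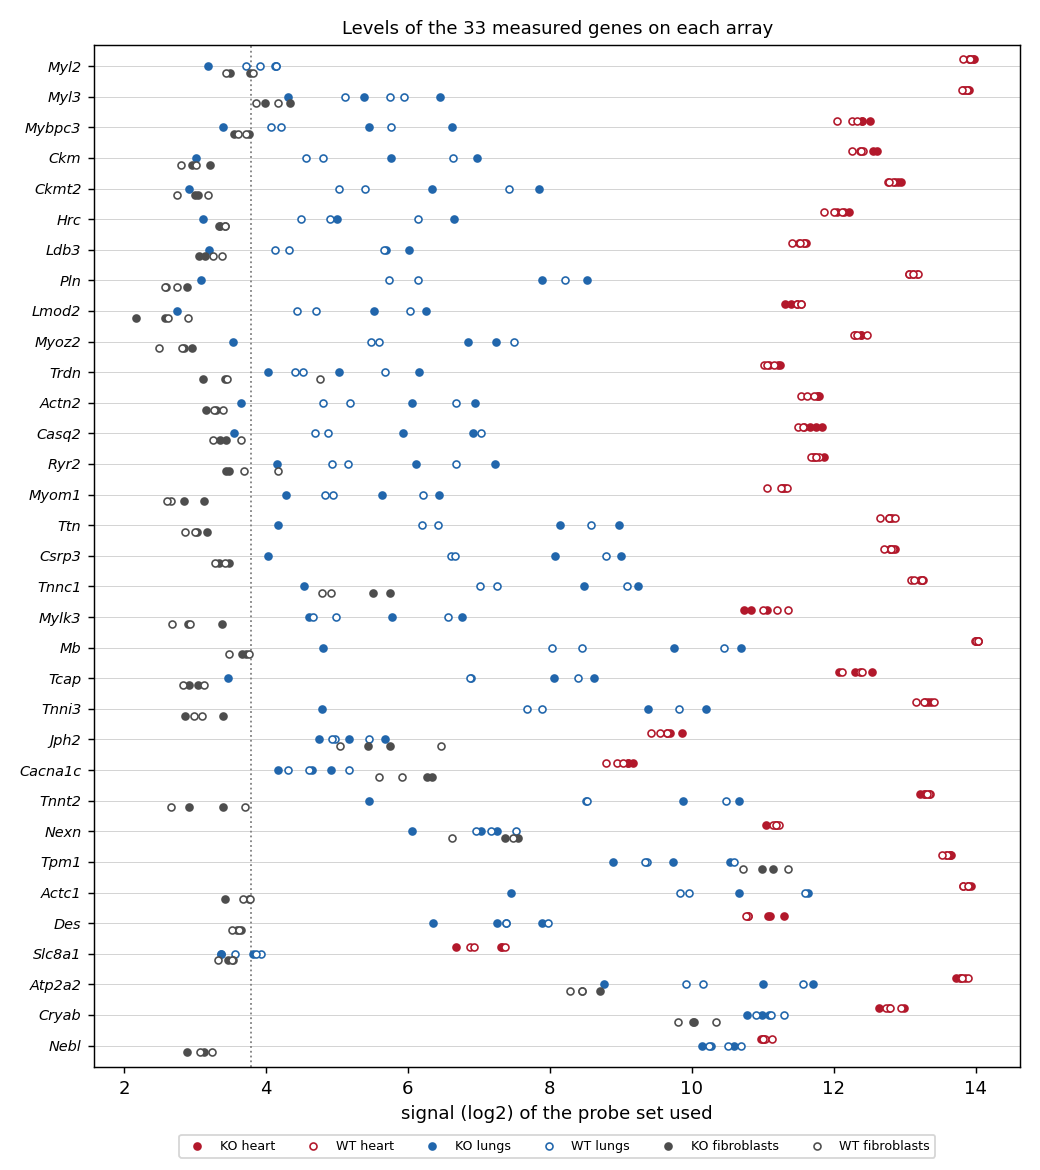
Signal (log2) of the probe set used for each of the 33 measured genes on all 16 arrays, with KO as filled and WT as open points, heart in red, lungs in blue and fibroblasts in grey. The dotted line marks 3.79, the median of all values. Heart points lie close together at 6.67 to 14.04, while the lungs points of most genes are spread over several log2 units.

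Thick filament genes were higher in heart than in lungs by 5.47 to 10.05. Myl2, the ventricular regulatory light chain, read 13.98, 13.91 and 13.97 in KO heart (mice 1602, 1603 and 1586, the order used for KO below) and 13.92, 13.83 and 13.92 in WT heart (1592, 1624 and 1593, the order used for WT below). Myl2 was far lower in lungs, at 3.19, 4.14 and 4.12 in KO and 3.92, 3.71 and 4.14 in WT, close to the filter level on every array. Its heart minus lungs difference was 10.05 (limma adjusted p = 4.37e-15), with its size limited at the top of the scale in heart and near the filter level in lungs. Myl3, the ventricular essential light chain, read 13.86, 13.90 and 13.90 in KO heart and 13.82, 13.88 and 13.81 in WT heart. In lungs Myl3 read 4.31, 6.46 and 5.38 in KO and 5.94, 5.74 and 5.11 in WT. Its heart minus lungs difference was 8.37. For both light chains every heart value was above every lungs value. Mybpc3, which regulates cross-bridge formation as cardiac myosin binding protein C, differed by 7.41 between heart and lungs. Mylk3, the cardiac kinase of the regulatory light chain, differed by 5.47. Myom1, an M-band crosslinker, differed by 5.86, and Ttn, the giant elastic protein titin, by 5.70.

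Thin filament genes were higher in heart than in lungs by 3.68 to 6.51, and most had a clear lungs signal. Actc1 was higher in heart by 3.68 over lungs and by 10.22 over fibroblasts. Tnnt2, the troponin subunit that anchors the complex on tropomyosin, differed by 4.38 and 10.13 in these comparisons, Tnni3, the inhibitory subunit, by 5.01 and 10.22, and Tnnc1, the calcium-binding subunit, by 5.60 and 7.96. The fibroblast values of these troponin genes were at most 3.70 for Tnnt2 and 3.39 for Tnni3, while Tnnc1 read 4.79 to 5.75. Tpm1, a tropomyosin gene with many splice forms, was 3.86 higher in heart than in lungs and 2.55 higher than in fibroblasts. A second Tpm1 probe set ran the other way, at -2.46 for heart against lungs (adjusted p = 1.33e-07) and -4.33 for heart against fibroblasts (adjusted p = 9.27e-10). Lmod2, which nucleates and lengthens actin filaments, differed by 6.51 from lungs and 8.89 from fibroblasts.

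Z-disc and filament-linking genes were higher in heart than in lungs by 0.62 to 6.70. Actn2, the actin crosslinker of the Z-disc, was 6.15 higher in heart than in lungs. Ldb3 and Myoz2, which bind alpha-actinin, differed by 6.70 and 6.33, Csrp3, a LIM protein, by 5.61, and Tcap, the titin cap, by 5.25. Nexn, an actin-binding Z-disc protein, differed by 4.16, and Des, the muscle intermediate filament, by 3.59. Cryab, a small heat shock protein also made outside muscle, had the second smallest difference, 1.78. Nebl had the smallest, 0.62 (limma SE 0.10, adjusted p = 7.31e-05), with a lungs signal close to that in heart. Nebl, the cardiac relative of nebulin, read 11.00, 10.98 and 11.00 in KO heart and 11.04, 11.14 and 11.01 in WT heart. In lungs Nebl read 10.60, 10.27 and 10.14 in KO and 10.24, 10.52 and 10.69 in WT, against 2.89 to 3.25 in fibroblasts. A second Nebl probe set read 6.31 to 7.51 in heart and 4.86 to 6.21 in lungs.

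Calcium handling genes were higher in heart by 3.29 to 7.01. Hrc, a calcium-binding protein of the sarcoplasmic reticulum, had the largest heart minus lungs difference of this group, 7.01, and Atp2a2, which encodes the pump SERCA2, the smallest, 3.29. Pln, phospholamban, differed by 6.52, Trdn, triadin, which links store proteins to the release channel, by 6.16, Casq2, the store's calcium buffer calsequestrin, by 6.15, and Ryr2, the release channel, by 6.04. Jph2, which holds the surface membrane to the store, differed by 4.48, Cacna1c, the pore of the L-type channel, by 4.39, and Slc8a1, the sodium-calcium exchanger, by 3.43. Slc8a1 read 6.67, 7.32 and 7.32 in KO heart and 6.88, 6.93 and 7.37 in WT heart, with overlapping groups. Against fibroblasts the largest difference of all members was that of Pln, 10.42. The energy and oxygen genes Ckm and Ckmt2, the muscle and mitochondrial creatine kinases, and Mb, myoglobin, were higher in heart than in lungs by 7.14, 7.03 and 5.32.

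Heart muscle transcripts were present in lungs, and in unequal amounts between samples. The range over the 6 lungs arrays had a median of 3.23 over the 33 genes, from 0.52 for Cryab to 5.89 for Mb, while the range over the 6 heart arrays had a median of 0.21. The median signal of the members was 4.17 in KO lungs 1602, 7.25 in KO 1603 and 6.34 in KO 1586, and 7.42 in WT 1592, 5.59 in WT 1624 and 5.39 in WT 1593. The number of members more than 1 log2 unit above all 4 fibroblast arrays was 9, 26 and 25 in KO lungs and 25, 22 and 21 in WT lungs. KO 1602 was lowest for 31 of the 33 genes. For 25 genes the highest 3 arrays were KO 1603, KO 1586 and WT 1592, with KO 1602 lowest for each of the 25. This grouping of arrays was seen in the values and was not tested. The 8 exceptions were Myl2, Myl3, Nebl, Nexn, Des, Cryab, Slc8a1 and Cacna1c. In bulk tissue, fewer cells of a type and less RNA per cell cannot be told apart.

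**Figure D2:**
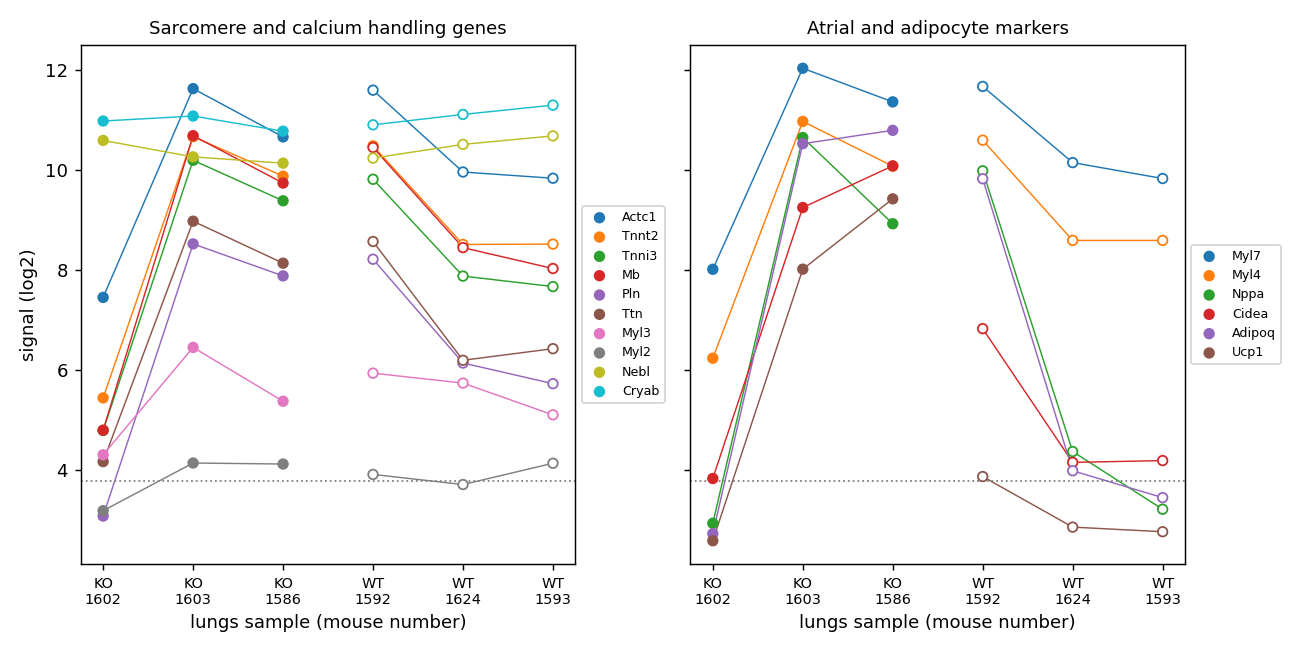
Signal (log2) in each lungs sample, with KO filled and WT open and 1 colour per gene, for 10 members (left) and for atrial and adipocyte markers (right). Lines only help to follow a gene and give the samples no order, and the dotted line marks 3.79. Most members are lowest in KO 1602, while Nebl and Cryab stay level and Myl2 stays near the dotted line.

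The 8 members with the highest mean lungs signal were Cryab, Atp2a2, Nebl, Actc1, Tpm1, Tnnt2, Mb and Tnni3. Actc1 read 7.46, 11.63 and 10.67 in KO lungs and 11.60, 9.97 and 9.84 in WT lungs. Mb read 4.80, 10.69 and 9.75 in KO lungs and 10.46, 8.45 and 8.04 in WT lungs. In both genes KO 1602 lay well below the other 5 samples, whose order was the same in both. Tnnt2 read 5.45, 10.67 and 9.88 in KO lungs and 10.49, 8.52 and 8.52 in WT lungs. Tnni3 read 4.80, 10.20 and 9.39 in KO lungs and 9.82, 7.88 and 7.67 in WT lungs. The KO samples of both troponin genes therefore included the lowest and the highest lungs value. Atp2a2 read 8.76, 11.71 and 11.00 in KO lungs and 11.57, 10.16 and 9.92 in WT lungs. Its KO 1602 value lay just above the fibroblast values, which were 8.29 to 8.71. Tpm1 read 8.90, 10.54 and 9.74 in KO lungs and 10.60, 9.37 and 9.34 in WT lungs, all below the lowest fibroblast value, 10.73. Cryab read 10.99, 11.09 and 10.78 in KO lungs and 10.91, 11.12 and 11.30 in WT lungs, with no sample apart.

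The 4 members with the lowest mean lungs signal were Ldb3, Cacna1c, Myl2 and Slc8a1. Ldb3 read 3.20, 6.01 and 5.70 in KO lungs and 5.66, 4.13 and 4.32 in WT lungs, and so still varied with the sample. Cacna1c read 4.17, 4.92 and 4.65 in KO lungs and 4.31, 4.61 and 5.17 in WT lungs. Slc8a1 read 3.36, 3.82 and 3.37 in KO lungs and 3.93, 3.56 and 3.87 in WT lungs, close to the filter level throughout.

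The light chains of atrial muscle gave clear lungs signals. Myl7 read 8.02, 12.04 and 11.37 in KO lungs and 11.68, 10.15 and 9.84 in WT lungs. Myl4, the atrial essential light chain, read 6.24, 10.98 and 10.08 in KO lungs and 10.60, 8.60 and 8.60 in WT lungs. In both the highest 3 samples and the lowest were those seen for Actc1 and Mb, while Myl2 stayed between 3.19 and 4.14. Nppa, the atrial natriuretic peptide gene, read 2.94, 10.66 and 8.93 in KO lungs and 9.99, 4.37 and 3.22 in WT lungs. Of the 5 measured atrial markers, 3 or 4 were above 3.79 in each KO lungs and in each WT lungs sample, and their mean was 5.35 to 8.77 in KO lungs and 6.37 to 8.51 in WT lungs. Bmp10 stayed at 2.66 to 2.86 in KO lungs and 2.71 to 2.82 in WT lungs, and Dkk3 was also high in fibroblasts. None of 11 skeletal muscle markers was above 3.79 in any KO or WT lungs sample.

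Adipocyte markers varied over the same lungs samples. Adipoq, the adiponectin gene, read 2.73, 10.53 and 10.80 in KO lungs and 9.83, 3.99 and 3.45 in WT lungs. Ucp1, the uncoupling protein of brown fat, read 2.59, 8.02 and 9.43 in KO lungs and 3.87, 2.86 and 2.77 in WT lungs. The mean of the 5 measured markers was 3.20, 9.64 and 10.30 in KO lungs and 8.07, 4.49 and 4.31 in WT lungs, so KO 1603, KO 1586 and WT 1592 were high in both the adipocyte markers and the 25 members. Among these markers Cidea is also high in heart, at 9.10 to 9.13 in KO heart and 8.58 to 9.12 in WT heart. The 4 smooth muscle markers had a mean of 5.44, 7.84 and 6.44 in KO lungs and 7.79, 7.10 and 6.96 in WT lungs, lowest in KO 1602. The 6 fibroblast markers had a mean of 6.96, 7.72 and 7.44 in KO lungs and 7.51, 7.33 and 7.23 in WT lungs, with the 6 samples in the same order as for Actc1 and Mb. Mesothelium markers had a mean of 7.5 to 8.31 in KO lungs and 7.44 to 8.47 in WT lungs. Endothelium markers had a mean of 9.05 to 9.49 in KO lungs and 9.07 to 9.83 in WT lungs, and erythroid markers 8.94 to 10.05 in KO lungs and 8.59 to 10.36 in WT lungs. The part of tissue composition in the lungs values was not tested.

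**Figure D3:**
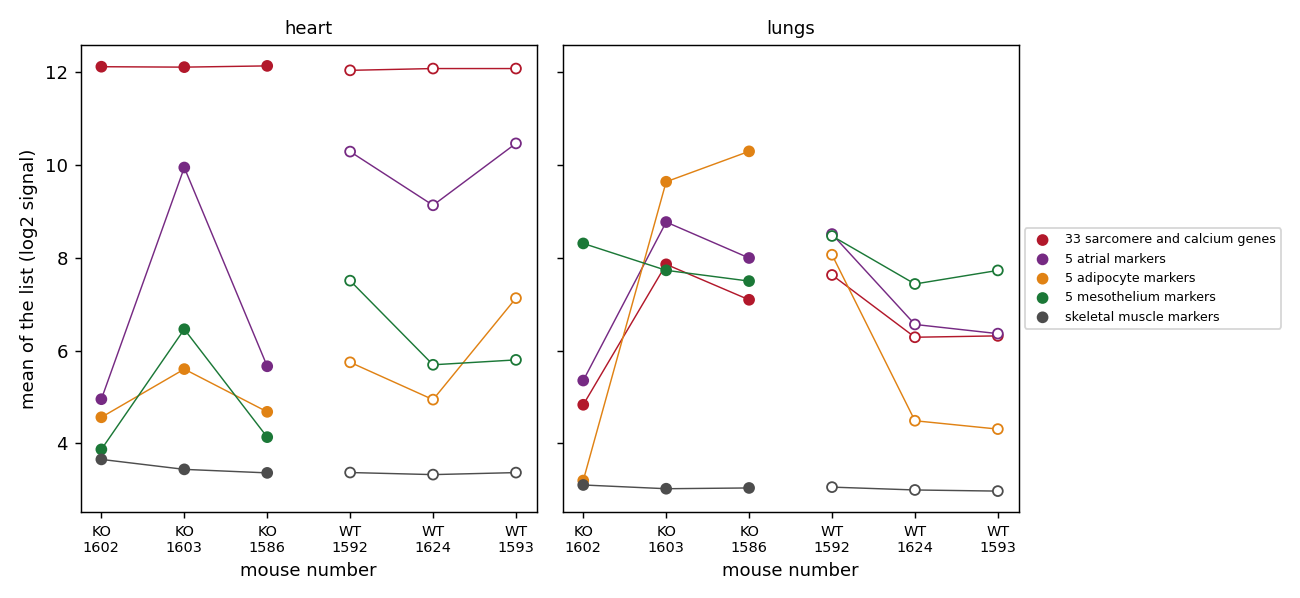
Mean log2 signal of the 33 members and of 4 marker lists in each heart sample (left) and each lungs sample (right), with KO filled and WT open. Lines only help to follow a list. The members' mean varies little in heart, where the atrial mean is low in KO 1602 and KO 1586. In lungs the members' mean varies with the atrial and adipocyte means.

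Against skin fibroblasts, 27 of 32 tested members were called higher in lungs, against 34.6% of tested probe sets, and 2 were called lower, against 39.5%. Only 8 members averaged above 3.79 in fibroblasts, so most entered the test through their lungs signal alone. The count of those higher in lungs therefore describes the list and is not independent evidence. The median difference over the 33 genes was 2.30, beside -0.08 over all tested probe sets. Nebl, which was level over the lungs samples at 10.14 to 10.69, had the largest difference, 7.33. It was followed by Actc1 at 6.53, Tnnt2 at 5.75, Tnni3 at 5.21 and Mb at 5.04, which were all lowest in KO lungs 1602. Cacna1c fell below fibroblasts by 1.40 and Tpm1 by 1.31. Myl2 at 0.24 (adjusted p = 0.224), Jph2 at -0.52 (adjusted p = 0.0640) and Nexn at -0.25 (adjusted p = 0.304) did not pass the limma test, and Slc8a1 was not tested. In fibroblasts 8 members had a mean above 3.79, which were Myl3, Tnnc1, Tpm1, Nexn, Cryab, Atp2a2, Cacna1c and Jph2. Tpm1 read 10.99 and 11.15 in KO fibroblasts and 10.73 and 11.36 in WT fibroblasts, with overlapping groups. Cryab read 10.03 and 10.02 in KO fibroblasts and 9.81 and 10.34 in WT fibroblasts. Nexn read 7.37 and 7.56 in KO fibroblasts and 6.62 and 7.48 in WT fibroblasts.

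The series asks what loss of NM1 does to gene expression, and in heart none of the 33 members was called between KO and WT. No member had an unadjusted p under 0.05 either, while 0.127% of tested probe sets were called and 17% had an unadjusted p under 0.05. The members' KO minus WT differences had a median of 0.05, with 24 above and 9 below 0 and a range of -0.32 to 0.38. Over all tested probe sets the median was -0.16. The smallest adjusted p among the members was 0.505, for Des, in limma. This fit pools the spread of the 3 tissues, and the members' median SE in it was 0.60. Fitted to the heart arrays alone, the median SE was 0.12 and again no member was called (background 0.00905%), with Des alone at an unadjusted p under 0.05 (background 9.89%).

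**Figure D4:**
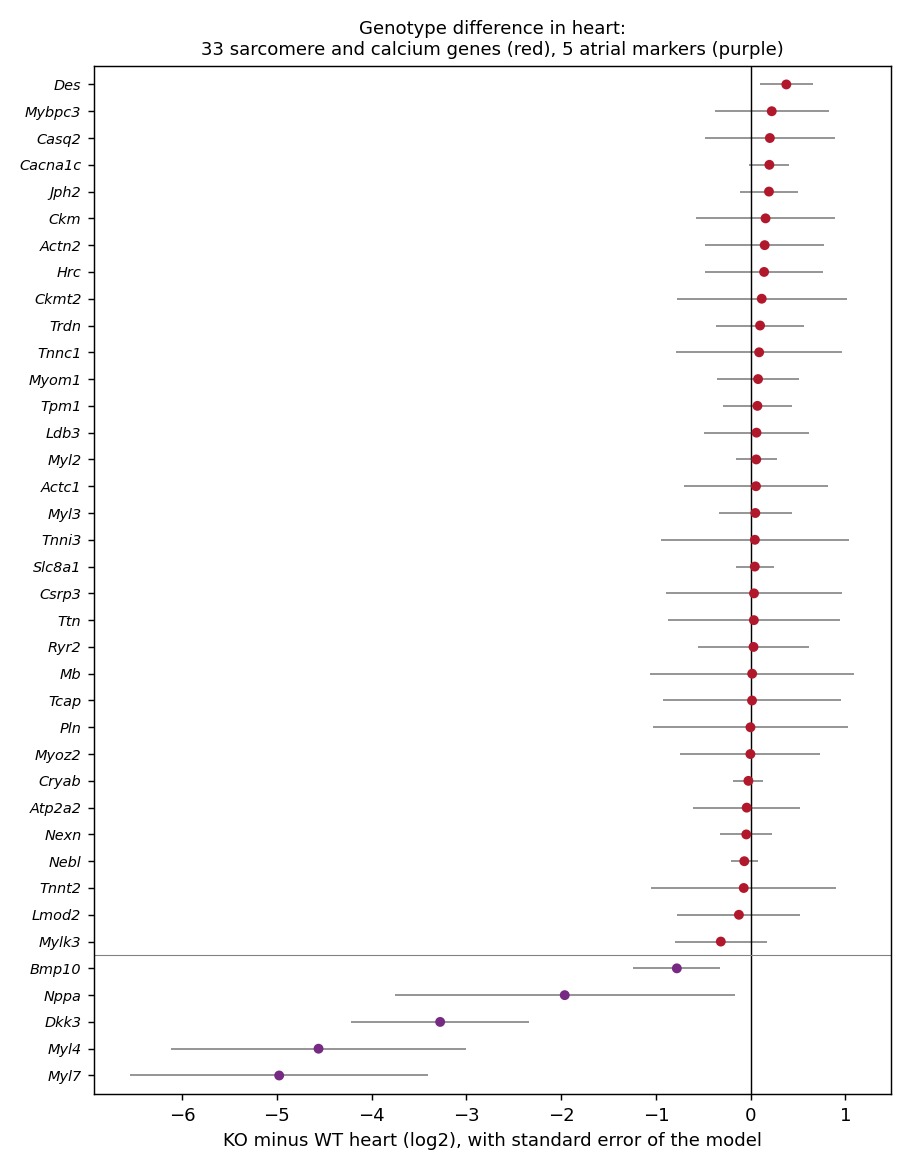
KO minus WT difference in heart (log2) for the 33 members (red) and 5 atrial markers (purple), with bars for the standard error of the model fitted to all 16 arrays. The members lie between -0.32 and 0.38, and the atrial markers between -4.97 and -0.78.

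The 5 members with the largest heart differences were Des, Mylk3, Mybpc3, Casq2 and Cacna1c. Des read 11.07, 11.30 and 11.11 in KO heart and 10.80, 10.79 and 10.76 in WT heart, so every KO value was above every WT value. Its difference was 0.38 (SE 0.28, adjusted p = 0.505), and with the heart arrays alone 0.38 (SE 0.13, adjusted p = 0.503 in limma). Mylk3 read 10.74, 10.83 and 11.06 in KO heart and 11.35, 11.01 and 11.21 in WT heart, and its groups overlapped. Mybpc3 read 12.40, 12.51 and 12.40 in KO heart and 12.05, 12.27 and 12.33 in WT heart, a difference of 0.22. Casq2 read 11.83, 11.75 and 11.67 in KO heart and 11.58, 11.50 and 11.56 in WT heart, a difference of 0.20. Cacna1c read 9.10, 9.17 and 9.10 in KO heart and 8.95, 9.03 and 8.79 in WT heart, a difference of 0.20. KO and WT did not overlap for these 3. In all, 10 of the 33 members did not overlap, against 17.6% of tested probe sets without overlap. Of the 10, Tpm1, Mybpc3, Actn2, Des, Casq2, Cacna1c, Jph2 and Ckmt2 were higher in KO, and Tnnt2 and Nebl were lower in KO. Mb read 14.04, 14.04 and 14.00 in KO heart and 14.00, 14.00 and 14.04 in WT heart, at the top of the scale.

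Atrial markers were uneven in the same hearts. Myl7 read 4.08, 12.14 and 5.66 in KO heart and 12.44, 11.14 and 13.23 in WT heart, and Myl4 read 4.18, 11.58 and 5.42 in KO heart and 11.79, 10.45 and 12.62 in WT heart. KO 1602 and KO 1586 were low in both genes, and KO 1603 lay within the WT range. All 5 measured atrial markers had a KO minus WT difference below 0, with a median of -3.28, 3 of them at an unadjusted p under 0.05 and none called, where 14.9% of all tested probe sets had such a p and were lower in KO. The mesothelium markers had a mean of 3.87, 6.46 and 4.13 in KO heart and 7.51, 5.69 and 5.80 in WT heart. The members' mean was 12.12, 12.11 and 12.14 in KO heart and 12.04, 12.08 and 12.08 in WT heart. Each KO mean lay slightly above each WT mean, which was not tested, and the means varied little over samples whose atrial markers differed. Without KO heart 1602 the members' median difference was 0.05 and none was called.

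In lungs no member was called between KO and WT, and none had an unadjusted p under 0.05. Among tested probe sets 0.0301% were called and 6.96% had an unadjusted p under 0.05. The median difference was -0.16, with 8 members above and 25 below 0 and a range of -0.67 to 0.47, and the smallest adjusted p was 0.730 (limma). No member separated KO from WT without overlap, against 11.5% of tested probe sets. With the lungs arrays alone the median SE was 0.82, again none was called (background 0.00431%) and none had an unadjusted p under 0.05 (background 8.36%). The members with the largest differences were Tcap at -0.67, Mb at -0.57, Actc1 at -0.55, Tnnt2 at -0.51 and Mybpc3 at 0.47. Tcap read 3.46, 8.62 and 8.07 in KO lungs and 8.40, 6.89 and 6.87 in WT lungs. Mybpc3 read 3.39, 6.62 and 5.45 in KO lungs and 5.77, 4.21 and 4.07 in WT lungs. In each of the 5 genes KO 1602 was the lowest sample and KO 1603 the highest. Without KO 1602 the differences of Tcap, Mb, Actc1 and Tnnt2 were 0.96, 1.24, 0.68 and 1.10, none called, and the members' median was 0.86. Without KO 1603 the difference of Mybpc3 was -0.26 and the members' median -0.75. Without WT 1592 the differences of Mb, Actc1 and Tnnt2 were above 0, at 0.17, 0.016 and 0.15. None of the 5 genes kept its sign over all samples left out.

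In skin fibroblasts 8 members were tested and none was called or had an unadjusted p under 0.05, against 0.0549% and 3.33% of tested probe sets. The median KO minus WT difference over the 33 genes was 0.05, from -0.84 for Trdn to 0.78 for Tnnc1. Trdn read 3.43 and 3.11 in KO fibroblasts and 3.45 and 4.77 in WT fibroblasts, with 1 WT value apart, and its difference was -0.18 without WT 1623 and -1.49 without WT 1571. Tnnc1 read 5.75 and 5.51 in KO fibroblasts and 4.92 and 4.79 in WT fibroblasts, without overlap. Cacna1c read 6.27 and 6.34 in KO fibroblasts and 5.60 and 5.91 in WT fibroblasts, a difference of 0.55 (adjusted p = 0.9999 in limma). Ryr2 read 3.44 and 3.48 in KO fibroblasts and 3.69 and 4.17 in WT fibroblasts, near the filter level, and its difference was -0.23 without WT 1623 and -0.71 without WT 1571. Nexn had a difference of 0.41. KO and WT did not overlap for 3 of the 8 tested members, which were Tnnc1, Atp2a2 and Cacna1c, all higher in KO, against 32.5% of tested probe sets. They did not overlap for 8 members below the filter level either, which were not tested.

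The KO effect in heart minus the KO effect in lungs was called for no member, and none had an unadjusted p under 0.05. Over all tested probe sets 0% were called and 7.22% had an unadjusted p under 0.05. The median over the members was 0.24, from -0.63 for Mylk3 to 0.79 for Des, and the smallest adjusted p was 0.705 (limma). The value also rested on lungs sample KO 1602, without which the median was -0.85, and on KO 1603, without which it was 0.80.

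Genes of the same pathways outside the 33 were partly higher in heart. Of 39 other sarcomere genes 32 were measured and 30 tested, of which 25 were called higher and 4 lower in heart than in lungs, with a median of 4.72 over the 32. The shares over all tested probe sets were 29.1% higher in heart and 46.5% lower. The largest differences were Acta1, skeletal actin, at 7.40, Fhl2, a LIM protein, at 7.05, Fhod3, a formin, at 6.92, Lmod3, a leiomodin, at 6.76 and Pdlim5, a Z-disc protein, at 6.48. Acta1 varied within heart, at 11.77, 12.31 and 10.23 in KO and 11.19, 10.59 and 12.17 in WT. Fhl2 read 12.05, 12.03 and 12.15 in KO heart and 11.90, 11.95 and 11.70 in WT heart, while in lungs it read 3.44, 5.76 and 5.37 in KO and 6.21, 4.36 and 4.37 in WT. Those lower in heart were Tpm3 and Tpm2, tropomyosin genes, Actn1, the non-muscle alpha-actinin, and Vcl, vinculin. The probe set annotated to Myh7, the slow myosin heavy chain, read 13.50 to 13.57 in KO heart and 13.51 to 13.58 in WT heart, but Myh6 is nearly identical in sequence, so this signal is uncertain as to gene.

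Of 36 other calcium handling genes 30 were measured and 24 tested, with 13 called higher and 9 lower in heart than in lungs and a median of 0.36, beside the same 29.1% and 46.5% of all tested probe sets. Srl, sarcalumenin, differed by 6.14, Tmem38a, a cation channel of the sarcoplasmic reticulum, by 5.26, Cacna2d1, a calcium channel subunit, by 3.40, Casq1, the skeletal calsequestrin, by 3.04 and Camk2a, a calmodulin-dependent kinase, by 2.56. Srl read 12.09, 11.98 and 11.92 in KO heart and 11.81, 11.89 and 11.86 in WT heart. In lungs Srl read 3.31, 7.63 and 6.28 in KO and 6.87, 5.21 and 5.41 in WT, again lowest in KO 1602. Atp2a3, a SERCA gene of non-muscle cells, was lowest against lungs at -3.53. Of 10 measured genes of muscle energy supply, 9 were called higher and 1, Ckmt1, lower in heart than in lungs, with a median of 5.35. No gene of these 3 lists was called between KO and WT in heart, lungs or fibroblasts. In heart 4 of the 30 tested sarcomere genes and 2 of the 22 tested calcium genes had an unadjusted p under 0.05 in limma, all lower in KO. Among all tested probe sets 17% had such a p, and 14.9% had it and were lower in KO, so the shares of both lists were below both. They were Tpm2 at -1.44, Pdlim3, a Z-disc protein, at -1.18, Actn1 at -0.96, Tpm3 at -0.54, Cacna1h, a T-type calcium channel, at -1.62 and Itpr2, an inositol trisphosphate receptor, at -0.49, named here after their values were seen. Tpm2 read 5.85, 6.99 and 6.51 in KO heart and 7.60, 7.64 and 8.43 in WT heart, lowest in KO 1602, whose array was unlike the others. In the same hearts the 4 smooth muscle markers had a mean of 5.70, 5.48 and 5.20 in KO and 6.63, 5.86 and 6.75 in WT. The 2 erythroid markers had a mean of 8.71, 8.73 and 9.23 in KO heart and 10.72, 9.64 and 10.70 in WT heart. The 6 fibroblast markers had a mean of 6.96, 7.49 and 7.21 in KO heart and 7.58, 7.53 and 8.16 in WT heart. KO lay below WT without overlap in each of these marker lists, while the lung epithelium mean given above was higher in KO without overlap. The part of these lists in the values of these 6 genes was not tested.

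The 29 further probe sets of the members gave the sign of the one used in 28 cases for heart against lungs and in 25 for heart against fibroblasts. The exception in heart against lungs was the second Tpm1 probe set. Those in heart against fibroblasts were the same Tpm1 probe set and a further one each of Cryab, Slc8a1 and Mb. That of Cryab was at -0.15 (adjusted p = 0.335 in limma), and those of Slc8a1 and Mb were not tested. For lungs against fibroblasts the signs matched in 25 of 29 cases, with the same Cryab probe set at -2.24 (adjusted p = 5.67e-09 in limma). For KO against WT the signs matched in 20 of 29 cases in heart, 21 in lungs and 19 in fibroblasts, and no further probe set was called.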

How the data were processed

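RNA of 16 samples was measured on Affymetrix mouse arrays. Per the labels' protocols, RNA was extracted with Trizol and 6 ug gave biotin-labelled cRNA. The deposited values are log2 signals, and Partek 6.4 is named in the submitters' processing notes. The sources used here do not give the background correction, the probe summary or the normalization. The values were used as deposited. Precision is limited by the number of arrays. Each mouse number was read as 1 animal. The smallest mean absolute difference between 2 arrays was 0.190.

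Of 45141 entries, 104 controls were left out. Of 45037 probe sets, 28898 had 1 gene, 551 several and 15588 none in the annotation used, and 28689 were matched to a current symbol. limma 3.58.1 in R 4.3.3 fitted 6 group means to all 16 arrays (10 residual and 3.53 prior degrees of freedom), two-sided, with Benjamini-Hochberg adjustment over the probe sets kept in each comparison. The method was tested on simulated data. Alternatives were the filter, quantile normalization, array weights, the mean of a gene's probe sets, a threshold of 1 log2 unit, the mouse as a block, and leaving out each array.

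The members, the 12 gene lists, the tests and the rule for named genes were chosen with earlier results of these data known. The rule gave values per sample for the 8 members highest and the 4 lowest in lungs, the 5 with the largest KO minus WT difference per tissue, the light chains, and per list of other genes the 5 with the largest heart minus lungs difference. Lungs and heart of a mouse share its number in the titles. Over probe sets, the deviations of the lungs and the heart of a mouse from their group means correlated at 0.0381 to 0.178, and 4 of 6 lungs samples correlated best with their own heart.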

Additional observations from a re-analysis of the deposited data

How the results depend on the processing

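All 33 members were called between heart and fibroblasts in each alternative, counted in either direction. For heart against lungs 32 or 33 were called, the 32 with a threshold of 1 log2 unit. With the mean of a gene's probe sets, Tpm1 was lower in heart than in fibroblasts, its second probe set being at -4.33. Between 28 and 30 members were called in either direction for lungs against fibroblasts, and none between KO and WT in any tissue or setting. The median difference of heart against fibroblasts was 8.33 with quantile normalization and 8.23 with the mean of a gene's probe sets. That of KO against WT in fibroblasts was 0.024 and 0.012 in the same 2 settings, and 0.021 to 0.067 when 1 array was left out. Leaving out a fibroblast array leaves 1 sample in its group, taken to vary as the other groups do. With array weights, KO minus WT in lungs was 0.57 for Tcap, 0.93 for Mb, 0.63 for Actc1 and 0.87 for Tnnt2, the opposite sign of the values above. The median KO effect in heart minus that in lungs was -0.89 with array weights and -0.85 to 0.80 when 1 array was left out.

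When 1 array was left out, KO minus WT in lungs ranged from -1.62 to 0.96 for Tcap, -1.71 to 1.24 for Mb, -1.41 to 0.68 for Actc1, -1.51 to 1.10 for Tnnt2 and -0.26 to 1.35 for Mybpc3. The highest of these came without KO 1602 and the lowest without KO 1603. Without WT 1592 the difference was 0.17 for Mb, 0.016 for Actc1 and 0.15 for Tnnt2. The median over the members in lungs ranged from -0.75 to 0.86, and in heart from 0.04 to 0.07. In fibroblasts the range was -0.018 to 0.85 for Nexn, -1.49 to -0.18 for Trdn and -0.71 to -0.23 for Ryr2. With the mouse as a replicate block, 33 members were again called higher in heart than in lungs, with a median of 5.61, and the block changed no other call. Signals near the top of the scale in heart and near the filter level in lungs and fibroblasts limit the differences that can be seen.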
